A study of Mus musculus with 16 samples.

Results

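Tumour organoids labelled LMP1 were compared with a normal comparator, a comparison made here by joining 2 deposited count tables on their gene symbols. All libraries that the labels and column headings assign to it were used: 2 LMP1 libraries and 3 comparator libraries, 5 of the 16 libraries of the series. Organoids are 3-dimensional cultures grown from dissociated tissue or tumour, and every library came from C57BL/6 mice. LMP1 (n = 2) is of genotype TMPL, that is Trp53-/- with Myc, a guide against Cdkn2a (sgCdkn2a) and the LMP1 gene, and its sample description calls it a metastasis, while the design text of the series names both primary and metastasized TMPL tumours. The tumours grew in recipient mice after transplantation into the nasopharynx. The comparator (n = 3) is described as normal and untreated, with none of these alleles named. The promoters that drive Myc and LMP1, the exons removed from Trp53, and whether replicates are separate animals or cultures are details that the sources used here do not give, and p-values therefore describe the spread among these libraries alone.

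LMP1 is a membrane protein of Epstein-Barr virus that signals without a ligand through TRAF and TRADD adaptors, and it switches on NF-kB and kinase pathways. It is expressed in many nasopharyngeal carcinomas, a cancer of the epithelium behind the nose. Normal epithelium of this region is layered over basal cells that make keratins 5 and 14 and the transcription factor p63, with squamous, mucus-secreting and ciliated cells above them, and loss of these features with a gain of vimentin and Zeb or Snail factors is called epithelial-mesenchymal transition (EMT).

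The comparator columns carry headings that name normal lung, in a table named for normal nasopharynx. Each of them followed the Normal_nasopha library of the same number in another deposited table, with a Spearman correlation over 22575 shared symbols of 0.977 to 0.979, against 0.888 to 0.904 with the Normal_lung libraries. This is a description with no test, and the columns are called the normal comparator. Keratin 5, Krt5, reached 8417, 2185 and 6171 CPM in them, where CPM are counts scaled to a common library size with edgeR's TMM factors, given in the order of the replicates. Of the airway's defining genes, Scgb1a1 of club cells had 1.01, 0.415 and 0.377 CPM and Foxj1, the master regulator of motile cilia, 1.01, 0.0593 and 0.188 CPM, and both genes were near 0 in the comparator. Summed over the 34 genes of the ciliated list, CPM were 111 and 96.3 in LMP1 and 57.9, 44.9 and 90.2 in the comparator. Nkx2-1, which defines lung epithelium, had 3.71, 0.533 and 0.628 CPM, and surfactant protein C, Sftpc, 139, 32.8 and 31.4 CPM. Total counts were 18067227 and 14779383 in LMP1 and 16573082, 17631461 and 16627986 in the comparator. Pearson correlations of log2 CPM over the 13719 genes tested were 0.988 between the LMP1 libraries and 0.896 to 0.932 among the comparator libraries. Comparator replicate 1 stood apart in its proliferation, as described with the cell cycle genes, and the results that depend on it are given with and without it.

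Of 13719 genes tested, 805 were higher in LMP1 (5.87% of the genes tested) and 1483 were lower (10.8%), 2288 in all (16.7%), at a Benjamini-Hochberg adjusted p under 0.05 from edgeR's quasi-likelihood F-test. A gene past this threshold is called. Of those called, 1478 differed by more than 4-fold, 28 of the higher genes had 0 counts in all comparator libraries, and 114 of the lower genes had 0 counts in both LMP1 libraries. The median log2 fold change over all genes tested was -0.12. The shares of 5.87% and 10.8% are the background for the counts of members called in every gene list below. A gene entered the test if 2 or more libraries reached 0.601 CPM of raw library size. Of the genes called lower, 390 reached this level in no LMP1 library, and of those called higher, 148 reached it in no comparator library, so the filter fixed their direction. Calls rested on both LMP1 libraries: 77 genes were called without LMP1 replicate 1 and 252 without LMP1 replicate 2, where the single library left is assumed to vary like the comparator. Without comparator replicate 1, 2137 genes were higher and 2188 lower, and without comparator replicate 3, 315 were higher and 628 lower. Log2 fold changes are LMP1 over comparator, with the standard error of the fit after ±. Genotype, tumour state, sex and any difference in handling between the tables cannot be told apart in this comparison, and in bulk RNA fewer cells of a type cannot be told apart from less RNA per cell.

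**Figure D1:**
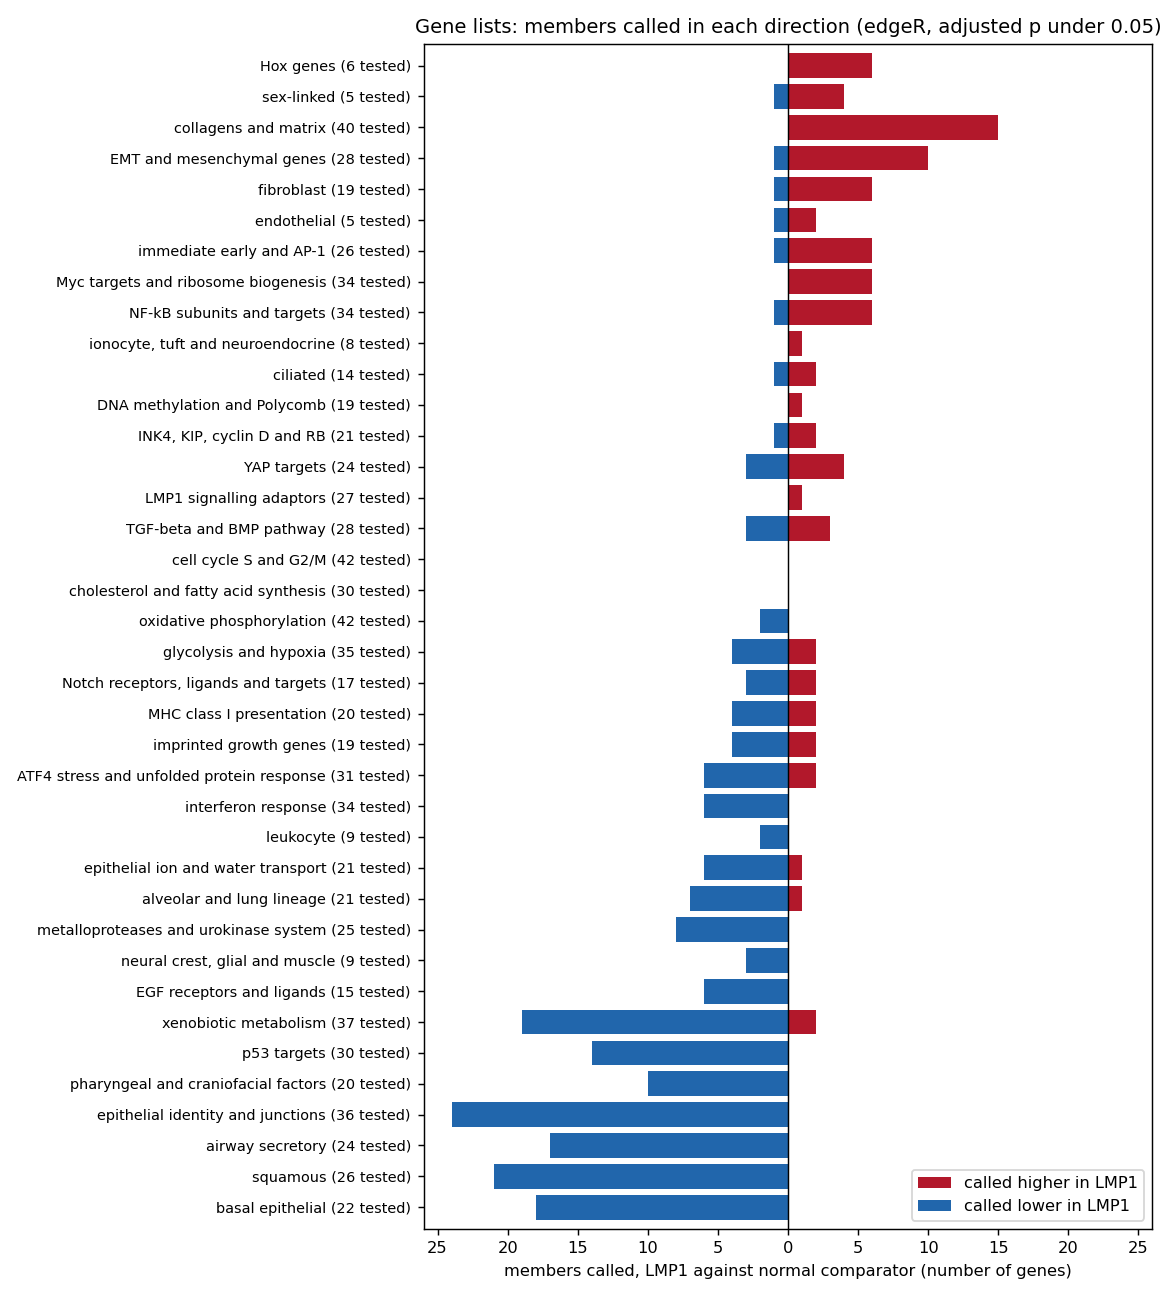
Number of tested members of each of 38 gene lists called higher (right, red) or lower (left, blue) in LMP1 against the normal comparator. The basal, squamous, airway secretory and epithelial lists lie at the lower end with 18, 21, 17 and 24 members called lower, and the collagen and EMT lists lie near the upper end with 15 and 10 members called higher.

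The genes named in the genotype were read first. Cdkn2a gives the inhibitors p16 and p19 of cell division (chromosome 4, 89274471 to 89294653, GRCm38), and it had 357 and 312 CPM in LMP1, against 5.03, 5.69 and 8.16 CPM in the comparator. Every LMP1 library was above every comparator library and the gene was called higher, 53.1-fold (log2 fold change 5.73 ± 0.31, edgeR adjusted p = 0.00470), although the label names a guide against it. Where the guide cuts is not given in the sources used here, so these counts do not check the label. Myc, a transcription factor that drives growth (chromosome 15, 61985391 to 61990374), had 1879 and 1732 CPM in LMP1, against 104, 79.3 and 64.96 CPM in the comparator (log2 fold change 4.45 ± 0.32, edgeR adjusted p = 0.00573). Trp53 encodes the tumour suppressor p53 (chromosome 11, 69580359 to 69591873), and its counts were 98.2 and 102 CPM in the LMP1 libraries and 163, 105 and 66.02 CPM in the comparator libraries, with the groups overlapping and no call (log2 fold change -0.15 ± 0.39, edgeR adjusted p = 0.801).

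Many genes that p53 activates were lower in LMP1. Of 30 such genes, all tested, 14 were called lower and 0 higher, against 10.8% and 5.87% of all genes, and the median log2 fold change of the list was -1.31. The other 16 were not called. Of the 30, 23 had a log2 fold change below 0 and 7 above, and in 5 both LMP1 libraries lay above every comparator library. Of the 14, 1 passed the filter on low counts through the comparator alone and could only be lower. Phlda3, an inhibitor of AKT, had 12.5 and 13.4 CPM in LMP1, against 405, 339 and 577 CPM in the comparator (log2 fold change -5.08 ± 0.38, edgeR adjusted p = 0.00573). Cyclin G1, Ccng1, had 50.5 and 55.5 CPM in the LMP1 libraries and 371, 381 and 366 CPM in the comparator libraries (log2 fold change -2.81 ± 0.23, edgeR adjusted p = 0.00573). Pmaip1, which encodes the death-promoting protein NOXA, had 10.5 and 15.6 CPM in the LMP1 libraries and 119, 174 and 104 CPM in the comparator libraries (log2 fold change -3.34 ± 0.37, edgeR adjusted p = 0.00826). In each of these both LMP1 values lay far below the lowest comparator value. Cdkn1a, the cell cycle inhibitor p21 (chromosome 17, 29090976 to 29100727), fell 28.02-fold, with 7.99 and 20.8 CPM in LMP1, against 348, 601 and 260 CPM in the comparator (log2 fold change -4.81 ± 0.66, edgeR adjusted p = 0.0122). Mdm2, the ligase that degrades p53 and is itself a p53 target, had 81.97 and 83.4 CPM in LMP1, against 188, 295 and 218 CPM in the comparator (log2 fold change -1.50 ± 0.28, edgeR adjusted p = 0.0244). In the group of INK4 and KIP inhibitors, cyclins D and E and RB genes, 2 of 21 were called higher and 1 lower, while DESeq2 called 3 higher and 4 lower. The 2 were Cdkn2a and E2f3, a transcription factor of S phase entry, with 79.01 and 94.8 CPM in LMP1, against 42.9, 36.3 and 23.5 CPM in the comparator (log2 fold change 1.34 ± 0.31, edgeR adjusted p = 0.0394). The 1 lower was Cdkn1a. E2f2, a relative of E2f3, had 49.8 and 56.7 CPM in the LMP1 libraries and 20.9, 2.67 and 6.03 CPM in the comparator libraries and did not pass (edgeR adjusted p = 0.0863). Targets of p53 called higher numbered 1 without comparator replicate 1, and those called lower numbered 1 without LMP1 replicate 1, 3 without LMP1 replicate 2 and 9 without comparator replicate 3. INK4, cyclin and RB genes called higher numbered 1 without either LMP1 library or comparator replicate 2 or 3 and 11 without comparator replicate 1, and those called lower numbered 0 without LMP1 replicate 1, 3 without comparator replicate 1 and 2 without comparator replicate 2.

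**Figure D2:**
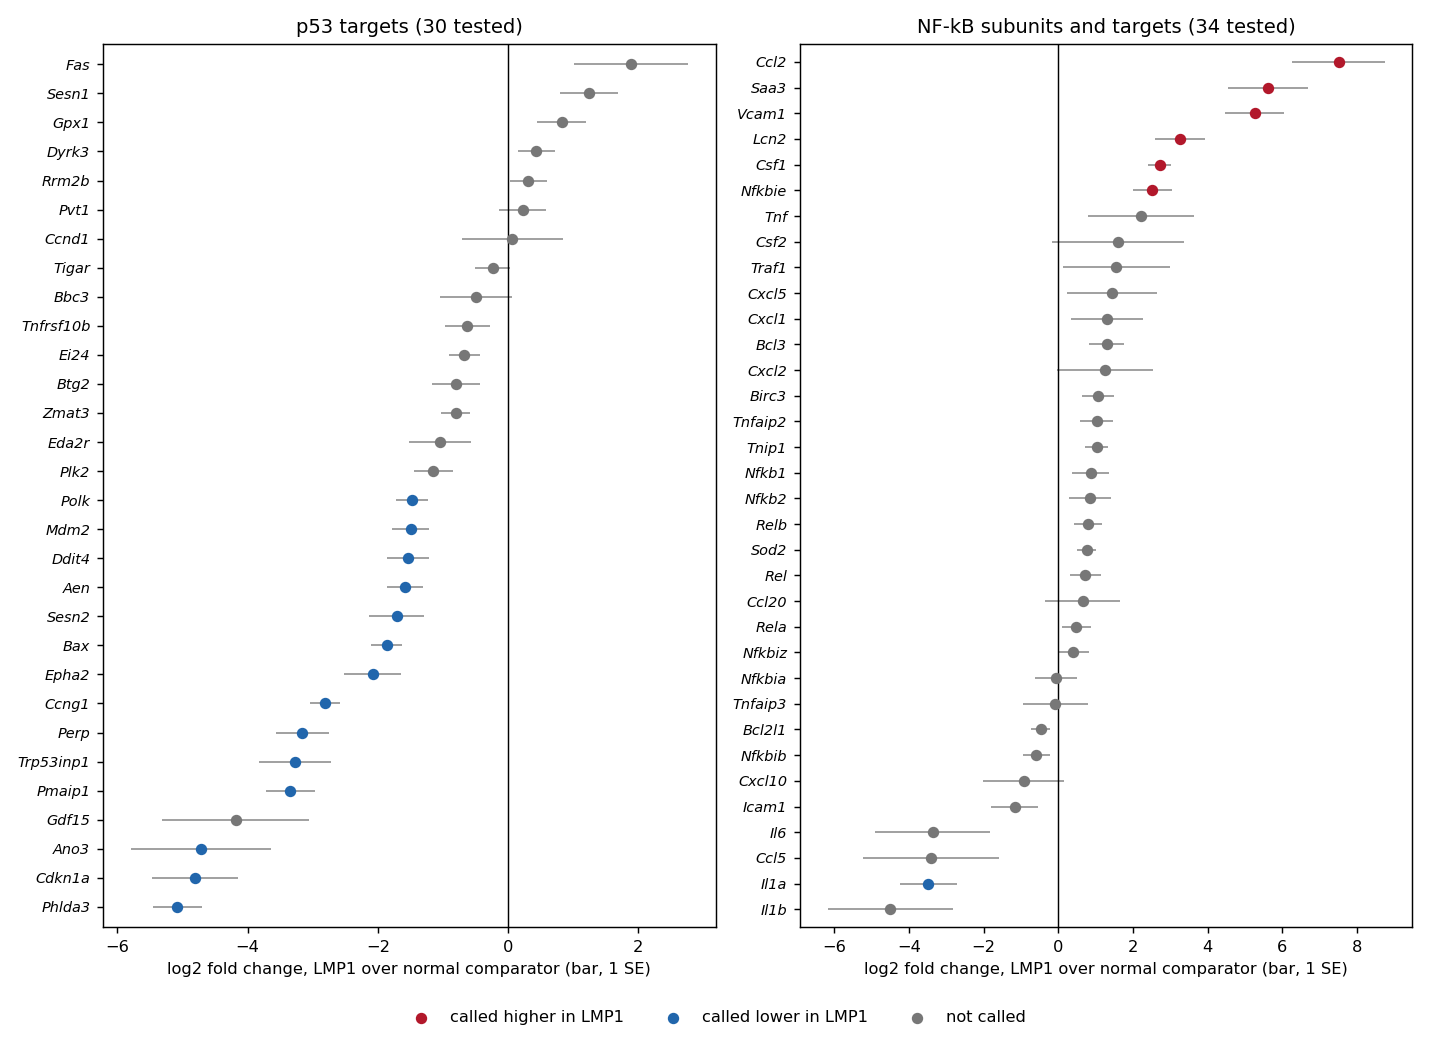
Log2 fold change of LMP1 over the normal comparator for each tested member of the p53 target list (left) and the NF-kB list (right), with 1 standard error. Called members are coloured: 14 p53 targets lie below 0 in blue, and 6 NF-kB genes lie above 0 in red with 1 below in blue.

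Cell cycle genes were at similar levels in LMP1 and in comparator replicate 1, and far lower in comparator replicates 2 and 3. Mki67, a marker of dividing cells, had 640.5 and 601 CPM in LMP1, against 595, 6.22 and 25.2 CPM in the comparator. The mitotic cyclin Ccnb1 had 287 and 281 CPM in the LMP1 libraries and 160.5, 2.61 and 8.97 CPM in the comparator libraries, and the DNA topoisomerase Top2a had 785 and 708 CPM in the LMP1 libraries and 596, 10.3 and 41.8 CPM in the comparator libraries. Comparator replicate 1 was the nearest to LMP1, and the other comparator libraries were lower by more than an order of magnitude. Summed over the 42 S and G2/M genes, CPM were 7247 and 7314 in LMP1 and 6223, 493 and 635 in the comparator. All 42 were tested and all 42 had a log2 fold change above 0, but edgeR called 0, 0 had an unadjusted p under 0.05 and DESeq2 called 0 higher and 0 lower. The smallest adjusted p was that of Ccne1, cyclin E1 (log2 fold change 1.39 ± 0.60, edgeR adjusted p = 0.152), with 42.4 and 58.1 CPM in the LMP1 libraries and 35.98, 12.2 and 9.48 CPM in the comparator libraries. It was followed by Ung, a DNA repair enzyme (38.8 and 43.4 CPM in LMP1, against 30, 8.54 and 6.65 CPM in the comparator, edgeR adjusted p = 0.170). Without comparator replicate 1, 40 of the 42 were called higher.

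Genes of ribosome production, many of them known Myc targets, were also highest in replicate 1 among the comparator libraries. Of 34 genes tested, 34 had a log2 fold change above 0 and 6 were called higher, with a median of 1.09. Wdr12, a ribosome assembly factor, had 85.8 and 94.5 CPM in LMP1, against 38.6, 30.2 and 23.03 CPM in the comparator (log2 fold change 1.56 ± 0.28, edgeR adjusted p = 0.0223). Srm, spermidine synthase, had 284 and 348 CPM in LMP1, against 119, 66.5 and 42.6 CPM in the comparator (log2 fold change 2.05 ± 0.44, edgeR adjusted p = 0.0338). Polr1a, the large subunit of RNA polymerase I, had 257 and 261 CPM in LMP1, against 134, 80.7 and 71.4 CPM in the comparator (log2 fold change 1.44 ± 0.32, edgeR adjusted p = 0.0368). In all 3 the groups did not overlap and comparator replicate 1 was the highest of the comparator libraries. The others called were the RNA polymerase I subunit Polr1b, nucleophosmin (Npm1) and the nucleolar protein Nop16, with log2 fold changes of 2.01 ± 0.49, 1.24 ± 0.32 and 1.18 ± 0.28. Ribosome production genes called higher numbered 0 without either LMP1 library or comparator replicate 3, 26 without comparator replicate 1 and 2 without comparator replicate 2.

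**Figure D3:**
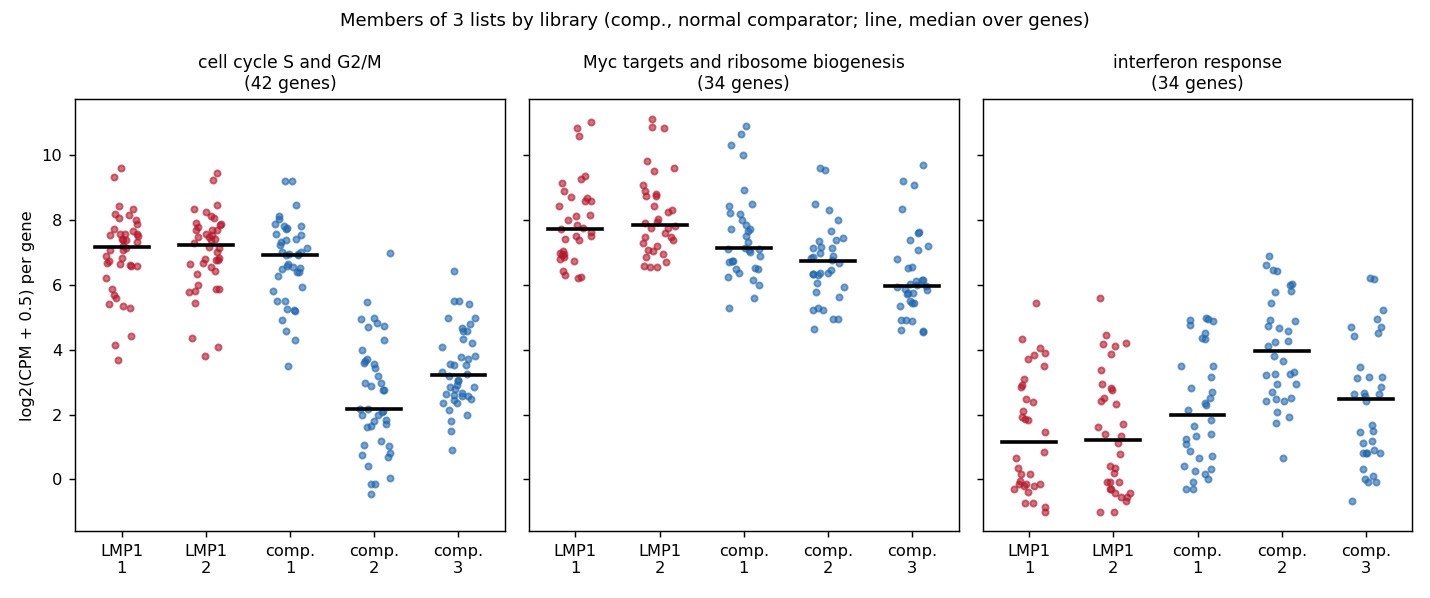
Log2(CPM + 0.5) of each tested member of the cell cycle, ribosome production and interferon lists in each library, with LMP1 in red left of the normal comparator in blue and a line at the median. Comparator replicate 1 sits beside LMP1 for cell cycle genes while replicates 2 and 3 sit well below, and comparator replicate 2 is the highest library for interferon genes.

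Epithelial genes were lower in LMP1 across transcription factors, junction proteins and adhesion molecules. Of 36 genes of epithelial identity and junctions, all tested, 24 were called lower and 0 higher, 35 had a log2 fold change below 0, and the median was -1.85. Among the transcription factors that maintain epithelium, Grhl2 (chromosome 15, 37233036 to 37363569) had 6.74 and 10.8 CPM in LMP1, against 122, 67.8 and 92.4 CPM in the comparator (log2 fold change -3.42 ± 0.40, edgeR adjusted p = 0.00901). Its relative Grhl3 had 1.04 and 1.15 CPM in LMP1, against 27.7, 24.6 and 40.7 CPM in the comparator (log2 fold change -4.82 ± 0.42, edgeR adjusted p = 0.00640). Ovol2, which represses Zeb1, had 0.104 and 0.446 CPM in LMP1, against 9.06, 5.10 and 7.22 CPM in the comparator (log2 fold change -4.70 ± 0.80, edgeR adjusted p = 0.0197). Ovol2 passed the filter through the comparator alone and could only be lower. E-cadherin, Cdh1, which joins neighbouring epithelial cells, remained abundant at 154 and 283 CPM in the LMP1 libraries and 735, 812 and 659 CPM in the comparator libraries and fell 3.37-fold (log2 fold change -1.75 ± 0.35, edgeR adjusted p = 0.0285). The adhesion molecule Epcam had 101 and 173 CPM in LMP1, against 552, 379.7 and 663 CPM in the comparator (log2 fold change -1.95 ± 0.39, edgeR adjusted p = 0.0284). Tmprss4, a membrane serine protease, had 2.75 and 4.65 CPM in LMP1, against 142, 103 and 138 CPM in the comparator (log2 fold change -5.11 ± 0.39, edgeR adjusted p = 0.00573). Ap1m2, an adaptor that sorts proteins to the basolateral membrane, had 2.70 and 4.78 CPM in LMP1, against 87.5, 98.1 and 94.8 CPM in the comparator (log2 fold change -4.65 ± 0.36, edgeR adjusted p = 0.00573). Rab25, a small GTPase of epithelial recycling, had 9.08 and 14.5 CPM in LMP1, against 185, 100.2 and 163 CPM in the comparator (log2 fold change -3.67 ± 0.42, edgeR adjusted p = 0.00849). Claudin 3, Cldn3, was the 1 member with a log2 fold change above 0, at 81.2 and 118 CPM in the LMP1 libraries and 44.9, 74.4 and 31 CPM in the comparator libraries (log2 fold change 0.99 ± 0.41, edgeR adjusted p = 0.137). The simple keratin Krt8 did not pass either, at 276 and 392 CPM in the LMP1 libraries and 1037, 609 and 735 CPM in the comparator libraries (edgeR adjusted p = 0.0587), while its partner Krt18 fell 3.05-fold (edgeR adjusted p = 0.0187). Epithelial genes called higher numbered 1 without comparator replicate 2, and those called lower numbered 2 without LMP1 replicate 1, 9 without LMP1 replicate 2 and 10 without comparator replicate 3.

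Grainyhead factors such as Grhl2 bind the sequence AACCNGTT in the promoters and enhancers of epithelial genes. Promoter windows of 300 bases around each start site (RefSeq, GRCm38.p6) were held for 23 of the 36 genes, and this motif or its reverse complement AACNGGTT occurred in 2 of them (8.70%), against 2.35% of 27025 genes with a window. The window of Rab25, 1 of the 2, spans chr3:88548230-88548529 on the minus strand, and its single match starts 102 bases before the start site. It is printed 5′ to 3′ with the match in capitals, because Rab25 fell together with Grhl2 and Grhl3, and a match of letters is no evidence of binding.
Rab25 promoter: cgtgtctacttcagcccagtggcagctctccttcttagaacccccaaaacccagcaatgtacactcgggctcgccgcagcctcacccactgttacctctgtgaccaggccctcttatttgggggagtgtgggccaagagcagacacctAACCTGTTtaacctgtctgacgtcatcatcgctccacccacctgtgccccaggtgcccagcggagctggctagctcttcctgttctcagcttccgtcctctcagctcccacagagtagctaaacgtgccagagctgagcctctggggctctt

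Basal cell genes were lower in LMP1. Of 22 basal genes, all tested, 18 were called lower and 0 higher, 22 had a log2 fold change below 0 and the median was -5.21. Of the 18, 2 passed the filter on low counts through the comparator alone and could only be lower. Krt5 (chromosome 15, 101707070 to 101712898) had 4.25 and 11.9 CPM in LMP1, against 8417, 2185 and 6171 CPM in the comparator (log2 fold change -9.44 ± 1.07, edgeR adjusted p = 0.00849). Its partner Krt14 had 4.62 and 11.8 CPM in LMP1, against 6613, 729 and 3263 CPM in the comparator (log2 fold change -8.75 ± 1.35, edgeR adjusted p = 0.0159). Trp63, the p63 master regulator of basal cells, had 2.44 and 1.85 CPM in LMP1, against 225, 61.4 and 322 CPM in the comparator (log2 fold change -6.55 ± 0.90, edgeR adjusted p = 0.0121). For each of these 3 defining genes the lowest comparator library lay far above both LMP1 libraries. Parts of the hemidesmosome, which anchors basal cells, were lower as well. The laminin chain Lama3 had 2.28 and 2.36 CPM in LMP1, against 279, 189 and 429.9 CPM in the comparator (log2 fold change -7.01 ± 0.53, edgeR adjusted p = 0.00573). Its partner Lamb3 had 3.48 and 5.86 CPM in LMP1, against 582, 246 and 787 CPM in the comparator (log2 fold change -6.85 ± 0.73, edgeR adjusted p = 0.00769). Integrin Itgb4 had 30.4 and 31.6 CPM in LMP1, against 1862, 368 and 1187 CPM in the comparator (log2 fold change -5.20 ± 0.81, edgeR adjusted p = 0.0164). Collagen Col17a1 had 0.882 and 1.59 CPM in LMP1, against 737, 116 and 696 CPM in the comparator (log2 fold change -8.71 ± 1.16, edgeR adjusted p = 0.0118). The surface protein Pdpn had a log2 fold change of -5.02 ± 0.38 (edgeR adjusted p = 0.00573). Basal genes called lower numbered 2 without LMP1 replicate 1, 6 without LMP1 replicate 2 and 10 without comparator replicate 3.

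Most squamous genes, which mark layered epithelium, were lower in LMP1. Of 29 measured, 26 were tested, 21 were called lower and 0 higher. The median log2 fold change was -8.28, or -7.20 with genes at 0 in LMP1 set to their bound. Of the 21 called lower, 11 passed the filter on low counts through the comparator alone and could only be lower. Periplakin, Ppl, which links desmosomes to keratin, was not called and was abundant in both groups, at 128 and 158 CPM in the LMP1 libraries and 268, 129 and 147 CPM in the comparator libraries (edgeR adjusted p = 0.533). Cnfn, a component of the cornified envelope, had 0.259 and 0.382 CPM in LMP1, against 36.04, 66.2 and 40.8 CPM in the comparator (log2 fold change -7.20 ± 0.53, edgeR adjusted p = 0.00573). Sprr1a, another envelope protein, had 1.45 and 2.99 CPM in LMP1, against 609, 476 and 1015 CPM in the comparator (log2 fold change -8.30 ± 0.67, edgeR adjusted p = 0.00573). Abca12, which carries lipid into the skin barrier, had 0.0519 and 0.0637 CPM in LMP1, against 40.8, 112 and 95.9 CPM in the comparator, which is 2 counts over LMP1 and a ratio of comparator to LMP1 of 1459 (95% exact counting interval 404 to 12049) (edgeR adjusted p = 0.00573). The keratin of wet squamous epithelium, Krt13, had 3 counts over LMP1 and 439, 21.3 and 128 CPM in the comparator, a ratio of 2247 (95% exact counting interval 769 to 10896) (edgeR adjusted p = 0.0243). Spink5, a protease inhibitor of the skin barrier, had 0 counts in LMP1 and 351, 129 and 364 CPM in the comparator, at least 3246-fold lower against a floor of 3 counts over both LMP1 libraries (edgeR adjusted p = 0.00763). Squamous genes called lower numbered 5 without LMP1 replicate 1, 10 without LMP1 replicate 2 and 13 without comparator replicate 3.

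**Figure D4:**
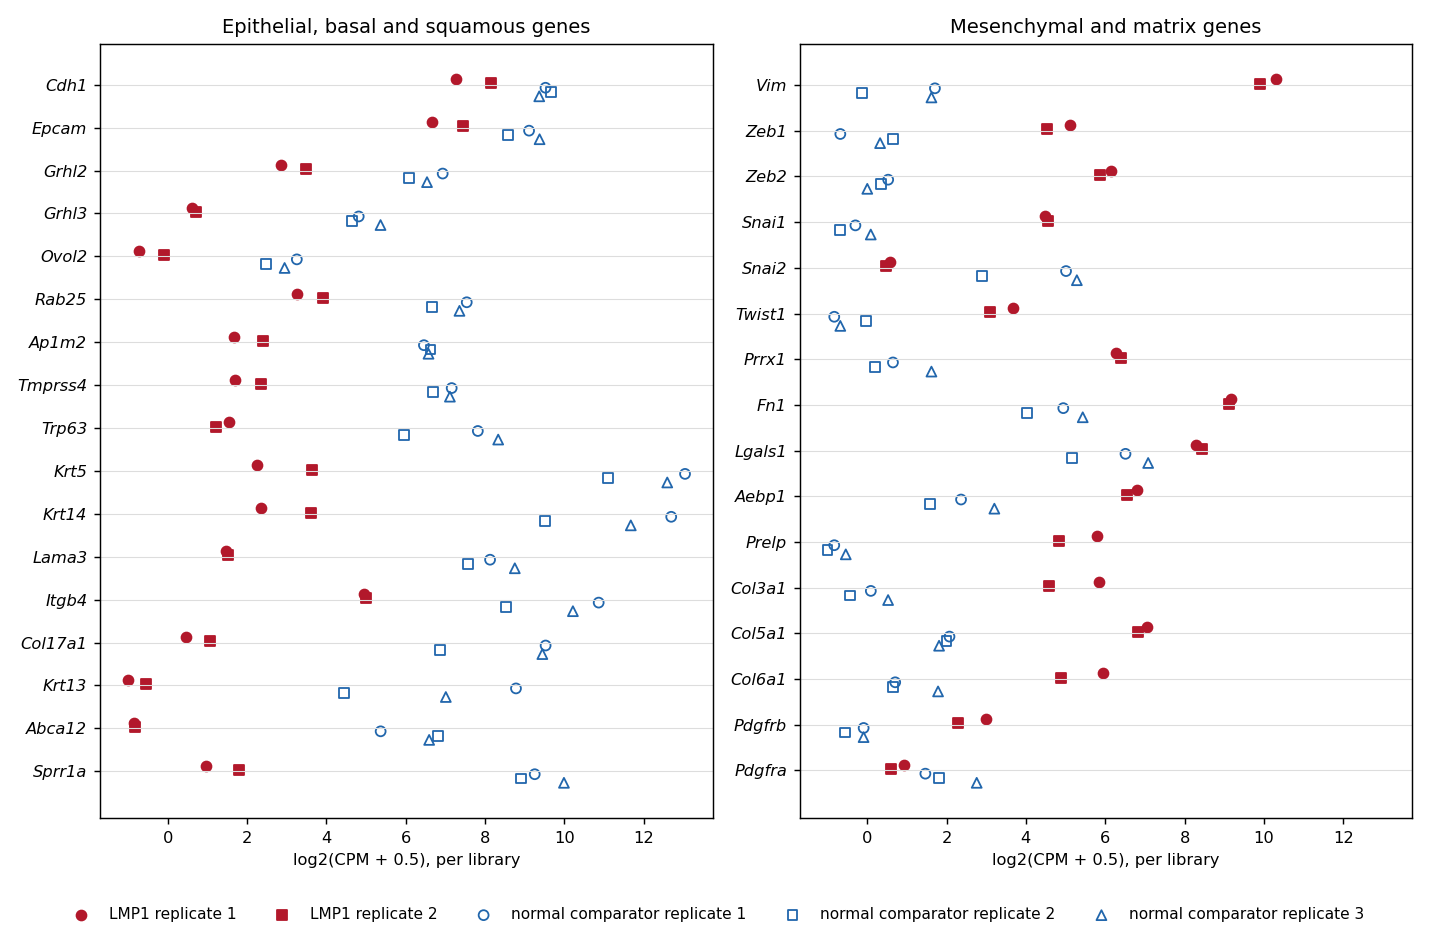
Log2(CPM + 0.5) in every library for 17 epithelial, basal and squamous genes (left) and 16 mesenchymal and matrix genes (right), with LMP1 in filled red and the normal comparator in open blue symbols. All 17 genes on the left have both LMP1 values below every comparator value, and on the right all genes but Snai2 and Pdgfra have both LMP1 values above. The genes were picked from the lists. Among all tested members, 17 of 28 EMT, 25 of 40 matrix and 9 of 19 fibroblast genes had both LMP1 values above.

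Several mesenchymal genes were higher in LMP1. Of 28 tested genes of the EMT list, 10 were called higher and 1 lower, against 5.87% and 10.8% of all genes. Of the 28, 18 had a log2 fold change above 0 and 10 below, 17 were not called, and the median was 2.13. DESeq2 called 16 higher and 3 lower. Vimentin, Vim, the intermediate filament of mesenchymal cells (chromosome 2, 13573927 to 13582826), had 1266 and 957 CPM in LMP1, against 2.77, 0.415 and 2.57 CPM in the comparator, and rose 579-fold (log2 fold change 9.18 ± 0.85, edgeR adjusted p = 0.00715). Of the EMT transcription factors named here, all but Snai2 rose. Of the 10 genes called higher, 2, Snai1 and Twist1, passed the filter on low counts through LMP1 alone and could only be higher. Zeb2 had 70.8 and 57.9 CPM in LMP1, against 0.944, 0.771 and 0.502 CPM in the comparator (log2 fold change 6.43 ± 0.37, edgeR adjusted p = 0.00470). Snai1 had 21.9 and 23.1 CPM in LMP1, against 0.315, 0.119 and 0.565 CPM in the comparator (log2 fold change 6.06 ± 0.62, edgeR adjusted p = 0.00769). Zeb1 had 33.98 and 22.6 CPM in LMP1, against 0.126, 1.07 and 0.753 CPM in the comparator (log2 fold change 5.42 ± 0.77, edgeR adjusted p = 0.0132). Twist1 had 12.3 and 8.09 CPM in LMP1, against 0.0629, 0.474 and 0.126 CPM in the comparator (log2 fold change 5.47 ± 0.83, edgeR adjusted p = 0.0154). Prrx1, a homeobox factor of mesenchyme, had 76.6 and 83.1 CPM in LMP1, against 1.07, 0.652 and 2.57 CPM in the comparator (log2 fold change 5.80 ± 0.60, edgeR adjusted p = 0.00769). Snai2 went the other way, at 0.986 and 0.891 CPM in LMP1, against 31.8, 6.94 and 38.5 CPM in the comparator (log2 fold change -4.76 ± 0.89, edgeR adjusted p = 0.0243). Basal cells also express Snai2, which is on the basal list and not on the EMT list, so it is not the 1 gene called lower above. That gene and the other EMT list members below 0 are not named here. Galectin 1, Lgals1, did not pass at 312 and 346 CPM in the LMP1 libraries and 90.6, 35.4 and 135 CPM in the comparator libraries (log2 fold change 1.92 ± 0.53, edgeR adjusted p = 0.0578). EMT genes called higher numbered 4 without LMP1 replicate 1 and 6 without LMP1 replicate 2, and those called lower numbered 0 without either LMP1 library and 2 without comparator replicate 2.

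Extracellular matrix genes rose in the same libraries. Of 40 tested collagen and matrix genes, 15 were called higher and 0 lower, and the median was 1.34. Fibronectin, Fn1, had 579.5 and 551 CPM in LMP1, against 30.2, 15.9 and 42.7 CPM in the comparator (log2 fold change 4.25 ± 0.45, edgeR adjusted p = 0.00769). The fibrillar collagen chain Col5a1 (chromosome 2, 27886425 to 28039514) had 132 and 112 CPM in LMP1, against 3.71, 3.50 and 3.01 CPM in the comparator (log2 fold change 5.16 ± 0.25, edgeR adjusted p = 0.00470), a difference much larger than the spread in either group. Prelp, a matrix proteoglycan, had 54.6 and 28.3 CPM in LMP1, against 0.0629, 0 and 0.188 CPM in the comparator (log2 fold change 8.85 ± 0.81, edgeR adjusted p = 0.00715). Prelp passed the filter through LMP1 alone and could only be higher. Aebp1, a collagen-binding protein, had 110.5 and 92.6 CPM in LMP1, against 4.65, 2.49 and 8.72 CPM in the comparator (log2 fold change 4.26 ± 0.54, edgeR adjusted p = 0.0106). Matrix genes called higher numbered 3 without LMP1 replicate 1 and 6 without LMP1 replicate 2, and those called lower numbered 1 without comparator replicate 1 and 3 without comparator replicate 2. The median of the list was 2.14 without comparator replicate 3.

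Markers of fibroblasts, some of which are on the matrix list too, were read as a whole list. Summed over the 28 genes, CPM were 685 and 517 in LMP1 and 1189, 454 and 1328 in the comparator, so the groups overlapped. Of 19 tested, 6 were called higher and 1 lower. Among the higher ones, the collagen chain Col3a1 had 57.02 and 23.3 CPM in LMP1, against 0.566, 0.237 and 0.941 CPM in the comparator (log2 fold change 6.10 ± 0.69, edgeR adjusted p = 0.00843). The collagen chain Col6a1 had 60.5 and 29.3 CPM in LMP1, against 1.13, 1.07 and 2.95 CPM in the comparator (log2 fold change 4.71 ± 0.61, edgeR adjusted p = 0.0112). Pdgfrb, a receptor of pericytes and fibroblasts, had 7.42 and 4.39 CPM in LMP1, against 0.440, 0.178 and 0.439 CPM in the comparator (log2 fold change 4.04 ± 0.64, edgeR adjusted p = 0.0167). Pdgfrb passed the filter through LMP1 alone and could only be higher. The defining receptor Pdgfra did not pass, at 1.40 and 1.02 CPM in the LMP1 libraries and 2.26, 3.02 and 6.28 CPM in the comparator libraries (edgeR adjusted p = 0.130), Thy1, Tcf21, Mfap5 and Mfap4 had 0 counts in LMP1, and Col1a1 and Col1a2 were at most 1.56 and 0.311 CPM in LMP1. Ly6a, the gene called lower, had 14.2 and 21.01 CPM in LMP1, against 728, 185 and 647 CPM in the comparator (log2 fold change -4.88 ± 0.74, edgeR adjusted p = 0.0154). The part of fibroblasts in the mesenchymal and matrix results was not tested. Fibroblast genes called higher numbered 1 without LMP1 replicate 1 and 3 without LMP1 replicate 2, and those called lower numbered 0 without either LMP1 library or comparator replicate 3 and 2 without comparator replicate 2.

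Most leukocyte and endothelial genes were too low to test in either group. Of 25 leukocyte genes measured, 9 were tested, 0 were called higher and 2 lower. Of the 2 called lower, 2 passed the filter on low counts through the comparator alone and could only be lower. The pan-leukocyte gene Ptprc had 0 and 0.0637 CPM in LMP1 and 1.13, 0 and 0.314 CPM in the comparator. The 2 called were the neutrophil gene S100a9, with 2 counts over LMP1 and 12.6, 5.33 and 26.6 CPM in the comparator (edgeR adjusted p = 0.0191), and the MHC class II gene H2-Ab1, with 1 count and 4.84, 1.30 and 5.65 CPM (edgeR adjusted p = 0.0249). The macrophage receptor Csf1r had 1 count over LMP1 and 2.26, 0.415 and 1.44 CPM in the comparator and did not pass (edgeR adjusted p = 0.0532). Of 14 endothelial genes, 5 were tested, 2 were called higher and 1 lower. The 1 called lower, and Flt1 of the 2 called higher, passed the filter through 1 group alone, so their direction was fixed. The lower one, the junction protein Esam, had 0.156 and 0.255 CPM in LMP1, against 2.39, 1.84 and 3.01 CPM in the comparator (log2 fold change -3.52 ± 0.69, edgeR adjusted p = 0.0266). Eng, a TGF-beta coreceptor, had 1.25 and 1.40 CPM in the LMP1 libraries and 0.315, 0.593 and 1.82 CPM in the comparator libraries and did not pass (edgeR adjusted p = 0.669). Plvap, a protein of endothelial diaphragms, had 24.9 and 17.1 CPM in LMP1, against 0.692, 0.593 and 0.502 CPM in the comparator (log2 fold change 5.12 ± 0.42, edgeR adjusted p = 0.00573). The VEGF receptor Flt1 had 0.830 and 1.97 CPM in LMP1, against 0, 0.119 and 0.0628 CPM in the comparator, which is 3 counts over the comparator and a ratio of 21.8 (95% exact counting interval 7.02 to 109.6) (edgeR adjusted p = 0.0406). The endothelial genes Cdh5, Kdr, Emcn and Cldn5 had 0 counts in LMP1. Cd163, a scavenger receptor named by its fold, had 43.3 and 18.3 CPM in LMP1 and 1 count over the comparator (ratio 1562 (95% exact counting interval 279.8 to 61756), edgeR adjusted p = 0.00666), while the macrophage genes Adgre1 and Itgax had 0 counts in LMP1. Cd163 passed the filter through LMP1 alone and could only be higher. Leukocyte genes called lower numbered 0 without either LMP1 library, 4 without comparator replicate 2 and 1 without comparator replicate 3. Endothelial genes called higher numbered 0 without LMP1 replicate 1 and 1 without LMP1 replicate 2 or comparator replicate 2 or 3, and those called lower numbered 0 without either LMP1 library or comparator replicate 3.

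Secretory genes of the airway were lower in LMP1, several of them at 0. Of 29 measured, 24 were tested and 17 were called lower and 0 higher, with a median of -5.65, or -5.41 with bounds. Of the 17 called lower, 9 passed the filter on low counts through the comparator alone and could only be lower. Bpifa1, an antimicrobial surfactant protein of nasal secretion (chromosome 2, 154142880 to 154149219), had 0 counts in LMP1 and 610, 13.2 and 105 CPM in the comparator, at least 2777-fold lower (edgeR adjusted p = 0.0445). Its relatives Bpifb9a and Bpifb9b also had 0 counts in LMP1, with 146, 10.6 and 62.8 CPM and 259, 18.8 and 97.7 CPM in the comparator (at least 838-fold and 1433-fold lower, edgeR adjusted p = 0.0271 and 0.0255), and as near copies they may share reads. The bactericidal lectin Reg3g had 0 counts against 665, 79.4 and 41.04 CPM (at least 3009-fold lower, edgeR adjusted p = 0.0331). Comparator libraries differed among themselves by more than an order of magnitude in Bpifa1, Bpifb9a and Reg3g, with replicate 1 highest. The mucin Muc5b had 0.311 and 0.191 CPM in LMP1, against 33.3, 4.92 and 34.1 CPM in the comparator (log2 fold change -6.52 ± 1.15, edgeR adjusted p = 0.0212). Lactoferrin, Ltf, had 17.5 and 47.1 CPM in LMP1, against 4864, 705 and 1601 CPM in the comparator (log2 fold change -6.21 ± 1.16, edgeR adjusted p = 0.0243). Gsto1, a glutathione transferase, had 227 and 275 CPM in LMP1, against 4110, 5217 and 6750 CPM in the comparator (log2 fold change -4.42 ± 0.42, edgeR adjusted p = 0.00730). Aldh1a1, which makes retinoic acid, had 1 count over LMP1 and 18.8, 4.57 and 19.8 CPM in the comparator, a ratio of 497 (95% exact counting interval 88.9 to 19659) (edgeR adjusted p = 0.0148). Wfdc2, a secreted protease inhibitor, stayed at 167 and 199.6 CPM in LMP1, against 1305, 494 and 1050 CPM in the comparator (log2 fold change -2.37 ± 0.48, edgeR adjusted p = 0.0298). Secretory genes called lower numbered 0 without either LMP1 library and 4 without comparator replicate 3.

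Enzymes that handle foreign compounds were also lower. Of 37 tested, 19 were called lower and 2 higher, and the median was -4.55, or -4.45 with bounds. Of the 19 called lower, 8 passed the filter on low counts through the comparator alone and could only be lower. The nasal cytochrome P450 Cyp2a5 (chromosome 7, 26835305 to 26843548) had 0 counts in LMP1 and 159, 650.4 and 2705 CPM in the comparator, at least 13549-fold lower (edgeR adjusted p = 0.0223). It was highest in comparator replicate 3 and lowest in replicate 1. The glutathione transferases Gsta1 and Gsta4 had 0.0519 and 0.255 CPM in LMP1, against 622, 2638 and 3453 CPM in the comparator, and 4.41 and 7.90 CPM in LMP1, against 2568, 2725 and 5004 CPM in the comparator, in that order of genes (edgeR adjusted p = 0.00769 and 0.00573), and Gsta2 had 1 count over LMP1 against 136, 666 and 1000 CPM (ratio 21057 (95% exact counting interval 3779 to 831743), edgeR adjusted p = 0.00857). Gsta1 and Gsta2 are near copies and may share reads. Nqo1, a quinone reductase and a known target of NRF2, had 6.80 and 9.55 CPM in LMP1, against 636, 839.7 and 3896 CPM in the comparator (log2 fold change -7.78 ± 1.19, edgeR adjusted p = 0.0156). Aldh1a3, another retinoic acid enzyme, had 2.28 and 1.91 CPM in LMP1, against 320.4, 206 and 193 CPM in the comparator (log2 fold change -6.83 ± 0.42, edgeR adjusted p = 0.00470). The carboxylesterase Ces1d had 0 counts against 128, 182 and 363 CPM (at least 2608-fold lower, edgeR adjusted p = 0.00763). The 2 called higher were Cyp1b1 and Fmo1, of which Fmo1 passed the filter through LMP1 alone and could only be higher. The cytochrome P450 Cyp1b1 had 225 and 229 CPM in LMP1, against 71.01, 99.2 and 48.01 CPM in the comparator (log2 fold change 1.64 ± 0.33, edgeR adjusted p = 0.0291). The monooxygenase Fmo1 had 28.02 and 18.6 CPM in LMP1, against 0.189, 0 and 0.126 CPM in the comparator (log2 fold change 7.72 ± 0.82, edgeR adjusted p = 0.00769). Xenobiotic enzymes called higher numbered 0 without LMP1 replicate 1 and 1 without LMP1 replicate 2, and those called lower numbered 3 without LMP1 replicate 1 and 6 without LMP1 replicate 2.

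Ion and water channels gave calls in both directions. Of 21 tested, 6 were called lower and 1 higher. Of the 6 called lower, 2 passed the filter on low counts through the comparator alone and could only be lower. The 1 called higher passed through LMP1 alone and could only be higher. The water channel Aqp4 had 0 counts in LMP1 and 402, 27.2 and 194 CPM in the comparator (at least 2384-fold lower, edgeR adjusted p = 0.0241), and its relative Aqp3 had 1.14 and 2.74 CPM in LMP1, against 2334, 227 and 2018 CPM in the comparator (log2 fold change -9.63 ± 1.46, edgeR adjusted p = 0.0154). The sodium channel subunit Scnn1a had 3.11 and 2.42 CPM in LMP1, against 27.2, 69.2 and 97.8 CPM in the comparator (log2 fold change -4.54 ± 0.66, edgeR adjusted p = 0.0141). The phosphate transporter Slc34a2 had 2 counts over LMP1 against 24.2, 5.93 and 5.59 CPM (ratio 206 (95% exact counting interval 56.8 to 1706), edgeR adjusted p = 0.0172). The proton pump Atp12a was the 1 called higher, with 8.92 and 4.58 CPM in LMP1 and 2 counts over the comparator (ratio 169.9 (95% exact counting interval 46.5 to 1411), edgeR adjusted p = 0.0154). Of 34 ciliated-cell genes measured, 14 were tested, 2 were called higher, Tppp3 and the cilium regulator Rfx3, and 1 lower, Rsph1. They had log2 fold changes of 3.24 ± 0.49, 2.15 ± 0.50 and -3.78 ± 0.66, and none of the 3 defines ciliated cells alone. Ccdc39, an assembly factor of the cilium, had 6.59 and 5.03 CPM in the LMP1 libraries and 2.39, 1.78 and 2.89 CPM in the comparator libraries and did not pass (edgeR adjusted p = 0.102). The half-site GTTGCC of RFX factors, with its reverse complement GGCAAC, lay in 19 of 32 ciliated-list promoters (59.4%), against 14.1% of all genes with a window. Of 8 tested genes of ionocytes, tuft and neuroendocrine cells, 1 was called higher, the kinase Dclk1, at 100 and 69.9 CPM in LMP1, against 5.03, 3.32 and 7.41 CPM in the comparator (log2 fold change 4.01 ± 0.41, edgeR adjusted p = 0.00769), while the tuft cell regulator Pou2f3 was at most 0.156 CPM in LMP1. Cftr, the chloride channel of ionocytes, had 0.623 and 0.828 CPM in the LMP1 libraries and 4.53, 2.85 and 1.32 CPM in the comparator libraries, and Ascl3, an ionocyte factor, had 0 counts in LMP1 and 0.755, 0.119 and 0.879 CPM in the comparator. Alox5ap, of leukotriene synthesis, had 2 counts over LMP1 and 1.38, 0.830 and 8.79 CPM in the comparator, and none of these 3 passed (edgeR adjusted p = 0.110, 0.0788 and 0.0656). Ion and water transport genes called higher numbered 0 without either LMP1 library and 2 without comparator replicate 1, and those called lower numbered 0 without either LMP1 library, 11 without comparator replicate 2 and 2 without comparator replicate 3. Ciliated genes called higher numbered 0 without LMP1 replicate 1 or comparator replicate 3 and 1 without LMP1 replicate 2, and those called lower numbered 0 without either LMP1 library and 2 without comparator replicate 1. Ionocyte, tuft and neuroendocrine genes called higher numbered 0 without LMP1 replicate 1, and those called lower numbered 1 without comparator replicate 2.

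NF-kB genes, which LMP1 signalling is known to activate, were mixed. Of 34 tested, 6 were called higher and 1 lower, against 5.87% and 10.8% of all genes, and the median was 0.86. The chemokine Ccl2, which draws monocytes, had 124 and 256 CPM in LMP1, against 2.71, 0.0593 and 0.377 CPM in the comparator (log2 fold change 7.50 ± 1.23, edgeR adjusted p = 0.0181). The acute phase protein Saa3 had 245 and 309 CPM in LMP1, against 13.5, 1.01 and 2.57 CPM in the comparator (log2 fold change 5.60 ± 1.07, edgeR adjusted p = 0.0257). Lcn2, an iron-binding defence protein, had 1475 and 1846 CPM in LMP1, against 256, 52.3 and 212 CPM in the comparator (log2 fold change 3.26 ± 0.66, edgeR adjusted p = 0.0292). In all 3 both LMP1 libraries lay above every comparator library. The growth factor Csf1 had 82.8 and 99.2 CPM in LMP1, against 15.2, 9.66 and 16.8 CPM in the comparator (log2 fold change 2.71 ± 0.31, edgeR adjusted p = 0.00857). The adhesion molecule Vcam1 had 2.75 and 5.67 CPM in LMP1, against 0.0629, 0.0593 and 0.188 CPM in the comparator (log2 fold change 5.25 ± 0.78, edgeR adjusted p = 0.0148). Vcam1 passed the filter through LMP1 alone and could only be higher. Nfkbie, an inhibitor that NF-kB itself induces, had 22.4 and 36.2 CPM in LMP1, against 8.43, 3.20 and 3.70 CPM in the comparator (log2 fold change 2.52 ± 0.52, edgeR adjusted p = 0.0310). The cytokine Il1a was the 1 called lower, at 0.311 and 1.08 CPM in LMP1, against 11.3, 5.87 and 6.15 CPM in the comparator (log2 fold change -3.48 ± 0.76, edgeR adjusted p = 0.0348). The subunit genes Nfkb1 and Nfkb2 overlapped between groups, at 148 and 189 CPM in the LMP1 libraries and 158, 56.7 and 63.6 CPM in the comparator libraries, and 103 and 168 CPM in the LMP1 libraries and 136, 41.7 and 47.6 CPM in the comparator libraries, in that order of genes, and neither passed (edgeR adjusted p = 0.242 and 0.317). Of 27 adaptors and kinases that LMP1 uses, 1 was called higher and 0 lower: Pik3r1, a regulatory subunit of PI3 kinase, with 109.9 and 92.97 CPM in LMP1, against 54.7, 40.3 and 50.9 CPM in the comparator (log2 fold change 1.06 ± 0.23, edgeR adjusted p = 0.0353). The adaptor Traf5 had 11.1 and 9.62 CPM in the LMP1 libraries and 3.52, 2.02 and 5.15 CPM in the comparator libraries, the kinase Chuk 96.7 and 97.9 CPM in the LMP1 libraries and 72.7, 81.2 and 59.2 CPM in the comparator libraries, and neither passed (edgeR adjusted p = 0.0831 and 0.190). The adaptor Traf1, itself an NF-kB target, had 1.25 and 1.97 CPM in the LMP1 libraries and 1.51, 0 and 0.126 CPM in the comparator libraries and did not pass (edgeR adjusted p = 0.456). NF-kB genes called higher numbered 0 without either LMP1 library, 14 without comparator replicate 1 and 2 without comparator replicate 3, and those called lower numbered 0 without either LMP1 library or comparator replicate 3. The median of the list was 1.54 without comparator replicate 1. Adaptor genes called higher numbered 0 without either LMP1 library or comparator replicate 3 and 2 without comparator replicate 1, and those called lower numbered 3 without comparator replicate 1 and 1 without comparator replicate 2.

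Several interferon-induced genes were lower in LMP1, with comparator replicate 2 the highest library. Of 34 tested, 6 were called lower and 0 higher, and the median was -2.93. Of the 6 called lower, 4 passed the filter on low counts through the comparator alone and could only be lower. Summed over the list, CPM were 186 and 198 in LMP1 and 292, 974 and 399 in the comparator. The exonuclease Isg20 had 3.06 and 2.55 CPM in LMP1, against 31.01, 29.9 and 22.5 CPM in the comparator (log2 fold change -3.31 ± 0.34, edgeR adjusted p = 0.00769). The antiviral GTPase Mx1 had 0.259 and 0.446 CPM in LMP1, against 10.7, 6.05 and 8.35 CPM in the comparator (log2 fold change -4.55 ± 0.61, edgeR adjusted p = 0.0118). The RNA sensor Oas1a had 0.104 and 0.446 CPM in LMP1, against 6.54, 18.6 and 5.77 CPM in the comparator (log2 fold change -5.23 ± 0.997, edgeR adjusted p = 0.0255). Isg15, a ubiquitin-like protein, did not pass at 0.415 and 0.127 CPM in the LMP1 libraries and 1.64, 96.6 and 5.46 CPM in the comparator libraries (edgeR adjusted p = 0.0839), where comparator replicate 2 alone was far above the rest. In antigen presentation by MHC class I, 4 of 20 tested were called lower and 2 higher, and 4 and 4 after a correction for gene length and GC content. The peptide transporters Tap1 and Tap2 had 5.34 and 6.69 CPM in LMP1, against 38.2, 38.8 and 41.1 CPM in the comparator, and 5.40 and 5.99 CPM in LMP1, against 24.8, 57.03 and 41.7 CPM in the comparator, in that order of genes (edgeR adjusted p = 0.00769 and 0.0162). The immunoproteasome subunit Psmb8 had 1.45 and 1.21 CPM in LMP1, against 11.01, 7.17 and 9.35 CPM in the comparator (log2 fold change -2.78 ± 0.47, edgeR adjusted p = 0.0188). Nlrc5, the activator of class I genes, had 2 counts over LMP1 against 3.46, 2.96 and 2.76 CPM (ratio 53.5 (95% exact counting interval 14.6 to 446), edgeR adjusted p = 0.0259). Nlrc5 passed the filter through the comparator alone and could only be lower. The immunoproteasome gene Psmb10 went the other way, at 29.7 and 24.6 CPM in LMP1, against 10.9, 5.33 and 4.33 CPM in the comparator (log2 fold change 1.98 ± 0.47, edgeR adjusted p = 0.0409). Interferon genes called higher numbered 3 without comparator replicate 2, and those called lower numbered 0 without either LMP1 library, 14 without comparator replicate 1 and 2 without comparator replicate 3. The median of the list was -0.87 without comparator replicate 2. Class I presentation genes called higher numbered 0 without either LMP1 library or comparator replicate 2 or 3, and those called lower numbered 0 without either LMP1 library and 2 without comparator replicate 3.

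Immediate early genes, which respond within minutes to growth signals, were split. Of 26 tested, 6 were called higher and 1 lower. Fos had 725 and 432 CPM in LMP1, against 33.3, 16.5 and 15.1 CPM in the comparator (log2 fold change 4.74 ± 0.48, edgeR adjusted p = 0.00769). Fosb had 551 and 292 CPM in LMP1, against 13.6, 8.77 and 4.14 CPM in the comparator (log2 fold change 5.58 ± 0.59, edgeR adjusted p = 0.00772). Egr1 had 413 and 629 CPM in LMP1, against 178, 196 and 128 CPM in the comparator (log2 fold change 1.64 ± 0.31, edgeR adjusted p = 0.0246). The endothelial and quiescence factor Klf2 had 90.7 and 34.2 CPM in LMP1, against 1.95, 5.04 and 1.32 CPM in the comparator (log2 fold change 4.49 ± 0.72, edgeR adjusted p = 0.0173). Fosl1, a Fos relative of invasive cells, was the 1 called lower, at 3.32 and 10.9 CPM in LMP1, against 63.1, 70.2 and 23.7 CPM in the comparator (log2 fold change -2.88 ± 0.73, edgeR adjusted p = 0.0485). The LMP1 libraries themselves differed in several of these genes. Immediate early genes called higher numbered 2 without LMP1 replicate 1 or comparator replicate 3 and 3 without LMP1 replicate 2, and those called lower numbered 0 without either LMP1 library or comparator replicate 3.

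Several ligands and receptors of the EGF family were lower. Of 15 tested genes of the list, 6 were called lower, 0 higher and 9 not called, and the median was -0.93. Of the 15, 12 had a log2 fold change below 0 and 3 above. DESeq2 called 1 higher and 8 lower. Among ligands, amphiregulin (Areg) had 2.33 and 4.46 CPM in LMP1, against 219, 37.8 and 60.2 CPM in the comparator (log2 fold change -4.96 ± 0.99, edgeR adjusted p = 0.0282). Betacellulin (Btc) had 1.14 and 0.637 CPM in LMP1, against 23.1, 10.9 and 22.1 CPM in the comparator (log2 fold change -4.37 ± 0.59, edgeR adjusted p = 0.0118). Epigen (Epgn) had 0.207 and 0.255 CPM in LMP1, against 10.8, 5.99 and 14.9 CPM in the comparator (log2 fold change -5.47 ± 0.69, edgeR adjusted p = 0.0105). Epgn passed the filter through the comparator alone and could only be lower. Of the receptors, Erbb3 had 13.5 and 20.3 CPM in LMP1, against 87.7, 93.5 and 99.1 CPM in the comparator (log2 fold change -2.47 ± 0.28, edgeR adjusted p = 0.00849), while Egfr overlapped between groups at 65.8 and 70.2 CPM in the LMP1 libraries and 145, 59.5 and 103 CPM in the comparator libraries and did not pass (edgeR adjusted p = 0.310). EGF family genes called higher numbered 1 without comparator replicate 1, and those called lower numbered 0 without LMP1 replicate 1, 1 without LMP1 replicate 2 and 3 without comparator replicate 3.

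Notch genes gave few calls. Of 17 tested, 3 were called lower and 2 higher, against 10.8% and 5.87% of all genes, and in the fit of 13 libraries the counts were 3 lower and 4 higher. The receptor Notch3 had 8.25 and 7.96 CPM in LMP1, against 239.8, 151 and 592 CPM in the comparator (log2 fold change -5.34 ± 0.74, edgeR adjusted p = 0.0126). The ligands Dll1 and Jag1 had 0.623 and 0.764 CPM in LMP1, against 64.5, 17.6 and 70.6 CPM in the comparator, and 28.3 and 25.8 CPM in LMP1, against 127, 53.7 and 125 CPM in the comparator, in that order of genes (edgeR adjusted p = 0.0116 and 0.0386). Of the 2 higher, Mfng, a glycosyltransferase that modifies Notch, had 16.6 and 18.6 CPM in LMP1, against 0.126, 0 and 0.126 CPM in the comparator (log2 fold change 7.61 ± 0.78, edgeR adjusted p = 0.00769). Mfng passed the filter through LMP1 alone and could only be higher. Rbpj, the DNA-binding partner of Notch, had 193 and 213 CPM in LMP1, against 68.6, 63.4 and 65.02 CPM in the comparator (log2 fold change 1.63 ± 0.20, edgeR adjusted p = 0.00935). Notch genes called higher numbered 0 without LMP1 replicate 1, 1 without LMP1 replicate 2 and 5 without comparator replicate 1, and those called lower numbered 0 without either LMP1 library and 7 without comparator replicate 2.

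In the TGF-beta and BMP pathway, 3 of 28 were called higher and 3 lower, against 5.87% and 10.8% of all genes. The coreceptor Tgfbr3 had 124 and 66.9 CPM in LMP1, against 2.83, 1.25 and 7.97 CPM in the comparator (log2 fold change 4.57 ± 0.79, edgeR adjusted p = 0.0205). The ligand Bmp7 had 2.18 and 3.69 CPM in LMP1, against 72.9, 28.6 and 83.5 CPM in the comparator (log2 fold change -4.39 ± 0.63, edgeR adjusted p = 0.0135). The inhibitors Smad6 and Skil had log2 fold changes of -3.94 ± 0.82 and -1.22 ± 0.28 (edgeR adjusted p = 0.0312 and 0.0404). Of 24 YAP targets, 4 were called higher and 3 lower, against the same shares. Cyr61, a matrix-associated signalling protein, had 521 and 359 CPM in LMP1, against 77.6, 49.9 and 76.2 CPM in the comparator (log2 fold change 2.69 ± 0.31, edgeR adjusted p = 0.00857). The YAP partner Tead2 had 69.5 and 52.4 CPM in LMP1, against 9.81, 8.48 and 16.8 CPM in the comparator (log2 fold change 2.38 ± 0.37, edgeR adjusted p = 0.0163), while Amotl2 had a log2 fold change of 1.25 ± 0.30 (edgeR adjusted p = 0.0431). Igfbp3, which binds insulin-like growth factors, went the other way at 9.91 and 27.4 CPM in LMP1, against 889.9, 165 and 492 CPM in the comparator (log2 fold change -4.79 ± 0.94, edgeR adjusted p = 0.0271). TGF-beta and BMP genes called higher numbered 0 without either LMP1 library, and those called lower numbered 0 without either LMP1 library, 7 without comparator replicate 2 and 1 without comparator replicate 3. YAP targets called higher numbered 0 without LMP1 replicate 1, 1 without LMP1 replicate 2, 7 without comparator replicate 1 and 2 without comparator replicate 3, and those called lower numbered 0 without either LMP1 library.

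Part of the list of metalloproteases, their inhibitors and the urokinase system was lower. Of 25 tested, 8 were called lower, 0 higher and 17 not called, with a median of -1.53. Of the 25, 8 had a log2 fold change above 0 and 17 below. DESeq2 called 3 higher and 12 lower. Of the 8 called lower, 2 passed the filter on low counts through the comparator alone and could only be lower. Serpinb5, the protease inhibitor maspin, had 1.09 and 2.42 CPM in LMP1, against 209, 142 and 165 CPM in the comparator (log2 fold change -6.62 ± 0.50, edgeR adjusted p = 0.00573). The urokinase receptor Plaur had 21.9 and 33.7 CPM in LMP1, against 263, 287 and 119 CPM in the comparator (log2 fold change -3.003 ± 0.49, edgeR adjusted p = 0.0181). Its ligand Plau had 10.8 and 15.8 CPM in LMP1, against 58.05, 27.4 and 45.5 CPM in the comparator (log2 fold change -1.72 ± 0.41, edgeR adjusted p = 0.0432). The metalloprotease Adam8 had 8.66 and 15.1 CPM in LMP1, against 97.4, 112 and 156 CPM in the comparator (log2 fold change -3.36 ± 0.39, edgeR adjusted p = 0.00898). In all 4 both LMP1 libraries lay below every comparator library. Protease genes called higher numbered 2 without comparator replicate 1 and 1 without comparator replicate 3, and those called lower numbered 1 without LMP1 replicate 1, 2 without LMP1 replicate 2 and 3 without comparator replicate 3.

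Position and lineage factors differed. Of 27 Hox genes, which mark position along the body axis, 22 had 0 counts in every comparator library, and the 6 that passed the filter on low counts did so through LMP1, so their being higher follows from the filter. Hoxa3 had 7.99 and 7.83 CPM and Hoxa5 8.82 and 6.75 CPM in LMP1, with 0 counts in the comparator (at least 129-fold and 128-fold higher, edgeR adjusted p = 0.0128 and 0.0136). Hoxa4 and Hoxd8 were low, at 1.92 and 1.91 CPM and 0.778 and 0.828 CPM in LMP1 against 0 counts (at least 31.1-fold and 12.99-fold higher, edgeR adjusted p = 0.0258 and 0.0418). Every Hoxb and Hoxc gene was at most 0.0637 CPM in LMP1. Outside the Hox family, the homeobox gene Tlx1 had 30.4 and 32.1 CPM in LMP1 and 0 counts in the comparator (at least 506-fold higher, edgeR adjusted p = 0.00754). Lin28b, an RNA-binding protein of embryonic cells that blocks let-7, had 21.6 and 22.1 CPM against 0 counts (at least 355-fold higher, edgeR adjusted p = 0.00774). The potassium channel Kcnt1 had 176 and 43.7 CPM in LMP1, against 0.0629, 0.178 and 0 CPM in the comparator (log2 fold change 10.27 ± 1.01, edgeR adjusted p = 0.00763), with a wide gap between the LMP1 libraries. Tlx1, Lin28b and Kcnt1 also passed the filter through LMP1 alone and could only be higher. Hox genes called higher numbered 0 without either LMP1 library and 3 without comparator replicate 3.

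Factors that pattern the pharynx and face were lower. Of 20 tested, 10 were called lower and 0 higher, and the median was -2.26. Of the 10 called lower, 6 passed the filter on low counts through the comparator alone and could only be lower. Foxe1, which specifies thyroid and pharyngeal epithelium, had 1 count over LMP1 and 15.98, 5.63 and 17.6 CPM in the comparator (ratio 452 (95% exact counting interval 80.8 to 17872), edgeR adjusted p = 0.0109). Otx2, a factor of anterior head structures, had 0 counts against 20.8, 19.4 and 143 CPM (at least 704-fold lower, edgeR adjusted p = 0.0278), and Pax6, of eye and nasal placodes, had 1.97 and 1.27 CPM in LMP1, against 56.3, 40.4 and 96.5 CPM in the comparator (log2 fold change -5.30 ± 0.56, edgeR adjusted p = 0.00769). Six2 had 18.6 and 22.5 CPM in LMP1, against 92.7, 64.1 and 80.96 CPM in the comparator (log2 fold change -1.95 ± 0.28, edgeR adjusted p = 0.0133). Sox2, a factor of progenitor cells, stayed within the comparator's range, at 68.9 and 58.97 CPM in the LMP1 libraries and 158, 33.7 and 167 CPM in the comparator libraries (edgeR adjusted p = 0.359). Pax9, a factor of pharyngeal endoderm, had 3.27 and 3.06 CPM in the LMP1 libraries and 34.1, 18.4 and 4.21 CPM in the comparator libraries and did not pass (log2 fold change -2.58 ± 0.89, edgeR adjusted p = 0.0945). Of 9 tested genes of neural crest, glia and muscle, 3 were called lower and 0 higher: Pax7, with 0 counts against 15.6, 7.53 and 9.41 CPM (at least 126-fold lower, edgeR adjusted p = 0.00954), Pax3, with 3 counts over LMP1 against 10.1, 21.3 and 7.91 CPM (ratio 154 (95% exact counting interval 52.6 to 751)), and Sox10, with 2 counts against 17.4, 6.28 and 3.83 CPM (ratio 159 (95% exact counting interval 43.8 to 1318)). All 3 passed the filter through the comparator alone and could only be lower. The adjusted p in edgeR was 0.0154 for Pax3 and 0.0163 for Sox10. Pharyngeal factors called higher numbered 1 without comparator replicate 1, and those called lower numbered 0 without LMP1 replicate 1 and 1 without LMP1 replicate 2. Neural crest, glial and muscle genes called higher numbered 1 without comparator replicate 1, and those called lower numbered 0 without LMP1 replicate 1 and 1 without LMP1 replicate 2.

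Genes of the lung lineage gave 7 called lower and 1 higher of 21 tested. Of the 7 called lower, 5 passed the filter on low counts through the comparator alone and could only be lower. Sftpc, the surfactant protein of alveolar cells, had 1 count over LMP1 against 139, 32.8 and 31.4 CPM (ratio 2348 (95% exact counting interval 421 to 92765), edgeR adjusted p = 0.0114). Sftpd, a surfactant protein also made in nasal glands, had 0.934 and 1.21 CPM in LMP1, against 64.97, 28.04 and 110.2 CPM in the comparator (log2 fold change -5.98 ± 0.76, edgeR adjusted p = 0.0106). Hopx had 2.08 and 1.34 CPM in LMP1, against 32.6, 81.99 and 83.2 CPM in the comparator (log2 fold change -5.26 ± 0.61, edgeR adjusted p = 0.00857). Nkx2-1 had 0 counts in LMP1 and did not pass (edgeR adjusted p = 0.0641). The 1 called higher was Foxp1, at 124 and 108 CPM in LMP1, against 44.7, 29.4 and 34.6 CPM in the comparator (log2 fold change 1.67 ± 0.26, edgeR adjusted p = 0.0156). Among imprinted growth genes 4 of 19 were called lower and 2 higher. Of the 4, 1 passed the filter through the comparator alone and could only be lower. Peg10, a retroviral-like gene of placenta, had 43.8 and 22.9 CPM in LMP1, against 0.881, 0.652 and 1.07 CPM in the comparator (log2 fold change 5.26 ± 0.46, edgeR adjusted p = 0.00645). Igf2r, the receptor that clears IGF2, had 480.2 and 384 CPM in LMP1, against 140.4, 185 and 194 CPM in the comparator (log2 fold change 1.32 ± 0.25, edgeR adjusted p = 0.0259). Mest, Peg3 and Plagl1 had log2 fold changes of -4.93 ± 0.86, -3.22 ± 0.60 and -2.52 ± 0.50 (edgeR adjusted p = 0.0209, 0.0241 and 0.0281). Lung lineage genes called higher numbered 0 without either LMP1 library or comparator replicate 3 and 3 without comparator replicate 1 or 2, and those called lower numbered 0 without either LMP1 library and 4 without comparator replicate 3. Imprinted genes called higher numbered 0 without LMP1 replicate 1 and 1 without LMP1 replicate 2, and those called lower numbered 0 without either LMP1 library and 2 without comparator replicate 3.

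Metabolic genes differed at single steps more than as groups. Of 35 glycolysis and hypoxia genes, 4 were called lower and 2 higher, close to the shares of 10.8% and 5.87% of all genes, with a median of -0.32. After a correction for gene length and GC content 4 were lower and 4 higher. The lactate transporter Slc16a1 had 485 and 484 CPM in LMP1, against 88.1, 58.5 and 49.3 CPM in the comparator (log2 fold change 2.89 ± 0.31, edgeR adjusted p = 0.00779). The glucose transporter Slc2a1 had 99.8 and 131 CPM in LMP1, against 408, 355 and 549.9 CPM in the comparator (log2 fold change -1.92 ± 0.31, edgeR adjusted p = 0.0176). The hypoxia-induced genes Vegfa and Adm had 82.8 and 81.9 CPM in LMP1, against 452, 428 and 582 CPM in the comparator, and 1.40 and 0.891 CPM in LMP1, against 37.8, 64.1 and 42.4 CPM in the comparator, in that order of genes (edgeR adjusted p = 0.00769 and 0.00615). In the ATF4 and unfolded protein response, 6 of 31 were called lower and 2 higher, against the same shares, and after the length and GC correction 3 were lower and 4 higher. The cystine transporter Slc7a11 had 81.2 and 80.8 CPM in LMP1, against 1949, 2751 and 3585 CPM in the comparator (log2 fold change -5.09 ± 0.44, edgeR adjusted p = 0.00615). Its partner chain Slc3a2 had 352 and 274 CPM in LMP1, against 766, 1545 and 1502 CPM in the comparator (log2 fold change -2.02 ± 0.42, edgeR adjusted p = 0.0305). The secreted hormone Fgf21 had 0.207 and 0.255 CPM in LMP1, against 6.04, 56.3 and 41.4 CPM in the comparator (log2 fold change -7.19 ± 1.25, edgeR adjusted p = 0.0207). Fgf21 passed the filter through the comparator alone and could only be lower. Xbp1, a factor of secretory cells, had 118 and 130.5 CPM in LMP1, against 233, 281 and 391 CPM in the comparator (log2 fold change -1.28 ± 0.30, edgeR adjusted p = 0.0409). The amino acid transporter Slc7a5, another partner of Slc3a2, went the other way at 672 and 516 CPM in LMP1, against 207, 120.2 and 178 CPM in the comparator (log2 fold change 1.82 ± 0.31, edgeR adjusted p = 0.0194), as did Shmt2, of one-carbon metabolism, at 499 and 456 CPM in LMP1, against 262, 168 and 155 CPM in the comparator (log2 fold change 1.29 ± 0.30, edgeR adjusted p = 0.0400). Glycolysis and hypoxia genes called higher numbered 0 without LMP1 replicate 1, 1 without LMP1 replicate 2 or comparator replicate 3 and 4 without comparator replicate 1 or 2, and those called lower numbered 1 without either LMP1 library. The median of the list was -0.19 without LMP1 replicate 1 and 0.003 without comparator replicate 3. ATF4 and unfolded protein genes called higher numbered 0 without either LMP1 library or comparator replicate 3 and 4 without comparator replicate 1, and those called lower numbered 0 without LMP1 replicate 1 and 1 without LMP1 replicate 2 or comparator replicate 3.

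Of 42 oxidative phosphorylation genes, 0 were called higher and 2 lower, Cox5b and Ndufa4, with log2 fold changes of -1.10 ± 0.26 and -1.46 ± 0.35 (edgeR adjusted p = 0.0413 and 0.0427). Of the 42, 24 lay above 0, among them the ATP synthase subunits Atp5c1 (285 and 247 CPM in the LMP1 libraries and 169, 137 and 162 CPM in the comparator libraries) and Atp5o (229 and 205 CPM in the LMP1 libraries and 164, 101 and 111 CPM in the comparator libraries) and the complex III subunit Uqcrc1 (284 and 266 CPM in the LMP1 libraries and 216, 178 and 173 CPM in the comparator libraries), none of which passed (edgeR adjusted p = 0.0629, 0.0988 and 0.135). The direction of the calls turned with the scaling: after the length and GC correction 10 were called higher and 0 lower. Of 30 genes of cholesterol and fatty acid synthesis, edgeR called 0, 7 had an unadjusted p under 0.05 and DESeq2 called 5 higher and 1 lower. Fatty acid synthase, Fasn, had 1475 and 1674 CPM in the LMP1 libraries and 750.5, 134 and 253 CPM in the comparator libraries, the carboxylase Acaca 348 and 342 CPM in the LMP1 libraries and 162, 54.8 and 81.9 CPM in the comparator libraries and the sterol sensor partner Insig1 437 and 339 CPM in the LMP1 libraries and 136, 35.9 and 124 CPM in the comparator libraries (edgeR adjusted p = 0.0936, 0.05003 and 0.0608). Of 19 genes of DNA methylation and Polycomb, 1 was called higher, the Polycomb subunit Suz12, at 252 and 260.5 CPM in LMP1, against 130.3, 78.7 and 71.4 CPM in the comparator (log2 fold change 1.45 ± 0.32, edgeR adjusted p = 0.0340). Bmi1, a Polycomb protein that represses Cdkn2a, did not pass at 69.1 and 63.8 CPM in the LMP1 libraries and 44.9, 18.3 and 17.9 CPM in the comparator libraries (edgeR adjusted p = 0.0997). Tet1, which oxidises methylated cytosine, had 2.65 and 1.72 CPM in the LMP1 libraries and 0.503, 0.356 and 0.628 CPM in the comparator libraries and did not pass (edgeR adjusted p = 0.0597). Oxidative phosphorylation genes called higher numbered 6 without comparator replicate 1, and those called lower numbered 0 without either LMP1 library, 4 without comparator replicate 1 and 1 without comparator replicate 2 or 3. Lipid synthesis genes called higher numbered 10 without comparator replicate 1 and 1 without comparator replicate 2, and those called lower numbered 1 without comparator replicate 2. DNA methylation and Polycomb genes called higher numbered 0 without either LMP1 library or comparator replicate 2 or 3 and 5 without comparator replicate 1, and those called lower numbered 1 without comparator replicate 1.

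Sex-linked genes separated the groups completely. Xist, the RNA that silences an X chromosome in females, had 0.156 and 0.573 CPM in LMP1, against 1137, 1173 and 1084 CPM in the comparator (log2 fold change -11.62 ± 0.68, edgeR adjusted p = 0.00470). The Y-linked Eif2s3y had 50.95 and 49.3 CPM in LMP1 and 0 counts in the comparator (at least 815-fold higher, edgeR adjusted p = 0.00615). Kdm5d and Uty had 34.7 and 29.8 CPM and 27.9 and 24.6 CPM in LMP1, also against 0 counts (at least 527-fold and 429-fold higher). Ddx3y was far below these in LMP1, at 1.14 and 1.47 CPM (at least 20.9-fold higher, edgeR adjusted p = 0.0323). Of the 5 sex-linked genes, 4 were called higher and 1 lower. The 4 called higher passed the filter through LMP1 alone and could only be higher. Across the autosomes the median log2 fold change lay between -0.31 on chromosome 7 (1029 genes) and 0.02 on chromosome 16 (427 genes), with 0.00 on the X chromosome (437 genes). Sex-linked genes called higher numbered 2 without LMP1 replicate 1.

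The other tumour groups gave the setting for these values. Ctr (n = 3) is of genotype TMP, Trp53-/- with Myc and sgCdkn2a but no LMP1, described as primary, and Lung-LMP1 (n = 3) is a further TMPL group, whose labels carry the prefix Lung. The part of site or tumour state in differences between LMP1 and these groups was not tested. A fit over 13 libraries, in which the comparator cancels and which also holds Lung-Ctr (n = 2, genotype TMP, described as primary), tested whether LMP1 stood apart from each: 1406 of 14096 genes differed from Ctr (9.97%, with 4.90% higher and 5.07% lower) and 1081 differed from Lung-LMP1 (7.67%, with 3.26% higher and 4.41% lower), in CPM of that fit. Without LMP1 replicate 1 these counts were 48 and 69, and without LMP1 replicate 2 they were 131 and 170. Of the 32 called differences among 17 genes examined, 4 were still called without LMP1 replicate 1 and 11 without LMP1 replicate 2. Of 22 basal genes, 17 were lower in LMP1 than in Ctr and 16 lower than in Lung-LMP1. Of 36 epithelial genes the counts were 19 and 20, and of 28 EMT genes 4 were higher than in Ctr and 10 higher than in Lung-LMP1. Of 30 p53 targets, whose activator is deleted in all of these tumours by label, 2 were higher and 4 lower than in Ctr.

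In several genes the log2 fold change against the comparator differed in sign between LMP1 and another tumour group, although Lgals1 and Pax9 in LMP1 did not pass against the comparator. Single libraries of the other groups overlapped the comparator. Ctr replicate 2 lay above comparator replicate 2 in Lgals1 (38.6 against 34.3 CPM) and, at 6.96 CPM, above every comparator library in Col5a1. Esrp1, a splicing factor of epithelial cells, had 54.5 and 93.4 CPM in LMP1, 494, 269 and 396 CPM in Ctr, 370.2, 444 and 427 CPM in Lung-LMP1 and 169, 169.9 and 132 CPM in the comparator. LMP1 was below both tumour groups (-2.38 ± 0.31, edgeR adjusted p = 0.00241 against Ctr, -2.48 ± 0.31, edgeR adjusted p = 0.00186 against Lung-LMP1, as log2 differences), while in the fit of 5 libraries it did not pass against the comparator (edgeR adjusted p = 0.0538). Lgals1 had 327 and 359 CPM in LMP1, 13.8, 38.6 and 21.2 CPM in Ctr, 19.9, 19.3 and 20.4 CPM in Lung-LMP1 and 88.6, 34.3 and 131 CPM in the comparator (3.80 ± 0.50, edgeR adjusted p = 0.00255 against Ctr). Pax9 had 3.43 and 3.17 CPM in LMP1, 79.2, 28.9 and 72.5 CPM in Ctr, 74.8, 115 and 75.4 CPM in Lung-LMP1 and 33.4, 17.9 and 4.09 CPM in the comparator (-4.18 ± 0.79, edgeR adjusted p = 0.0117 against Ctr). Plau had 11.3 and 16.4 CPM in LMP1, 138, 109 and 161 CPM in Ctr and 55.6, 97.2 and 74.7 CPM in Lung-LMP1 (-3.29 ± 0.42, edgeR adjusted p = 0.00209 against Ctr). Ly6a had 14.9 and 21.8 CPM in LMP1, 996, 692 and 1157 CPM in Ctr, 882, 1862 and 1164 CPM in Lung-LMP1 and 712, 179 and 629 CPM in the comparator (-6.15 ± 0.70, edgeR adjusted p = 0.00118 against Lung-LMP1). Col5a1 had 138 and 116 CPM in LMP1, 0, 6.96 and 0.690 CPM in Ctr, 0, 0.0632 and 0.165 CPM in Lung-LMP1 and 3.63, 3.39 and 2.93 CPM in the comparator (10.63 ± 1.75, edgeR adjusted p = 0.00682 against Lung-LMP1). LMP1 held the lowest values of Esrp1, Pax9 and Plau and the highest of Lgals1 among these groups.

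Basal, receptor and Y-linked genes differed between LMP1 and these tumours too, and EMT genes did so in part. Trp63 had 2.56 and 1.92 CPM in LMP1, 148, 56.9 and 334 CPM in Ctr and 233, 130.2 and 162 CPM in Lung-LMP1 (-6.32 ± 1.17, edgeR adjusted p = 0.0108 against Ctr). Erbb3 had 14.2 and 21.1 CPM in LMP1, 129, 66.8 and 85.4 CPM in Ctr and 76.9, 159.7 and 112 CPM in Lung-LMP1 (-2.41 ± 0.36, edgeR adjusted p = 0.00430 against Ctr). The EMT factor Zeb2 had 74.3 and 60.1 CPM in LMP1, 0.0692, 14.3 and 0.138 CPM in Ctr and 0.216, 0.126 and 0 CPM in Lung-LMP1, so that Ctr replicate 2 stood apart from its group. Zeb2 did not pass against Ctr (3.79 ± 1.42, edgeR adjusted p = 0.111) and passed against Lung-LMP1 (9.06 ± 1.89, edgeR adjusted p = 0.0184). Without Ctr replicate 2 its log2 difference from Ctr was 9.23 (edgeR adjusted p = 0.000943), and without Ctr replicate 1 or 3 it was 3.21 and 3.22 (edgeR adjusted p = 0.167 and 0.172). Vim did not pass against Ctr (3.29, edgeR adjusted p = 0.301) and passed against Lung-LMP1 (11.5, edgeR adjusted p = 0.0325). Snai1 passed against Ctr (4.05, edgeR adjusted p = 0.0472) and Lung-LMP1 (5.81, edgeR adjusted p = 0.0204). The Y-linked Ddx3y had 1.20 and 1.52 CPM in LMP1, 126, 99.3 and 78.2 CPM in Ctr and 53.9, 7.77 and 77.2 CPM in Lung-LMP1 (-6.21 ± 0.96, edgeR adjusted p = 0.00810 against Ctr).

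**Figure D5:**
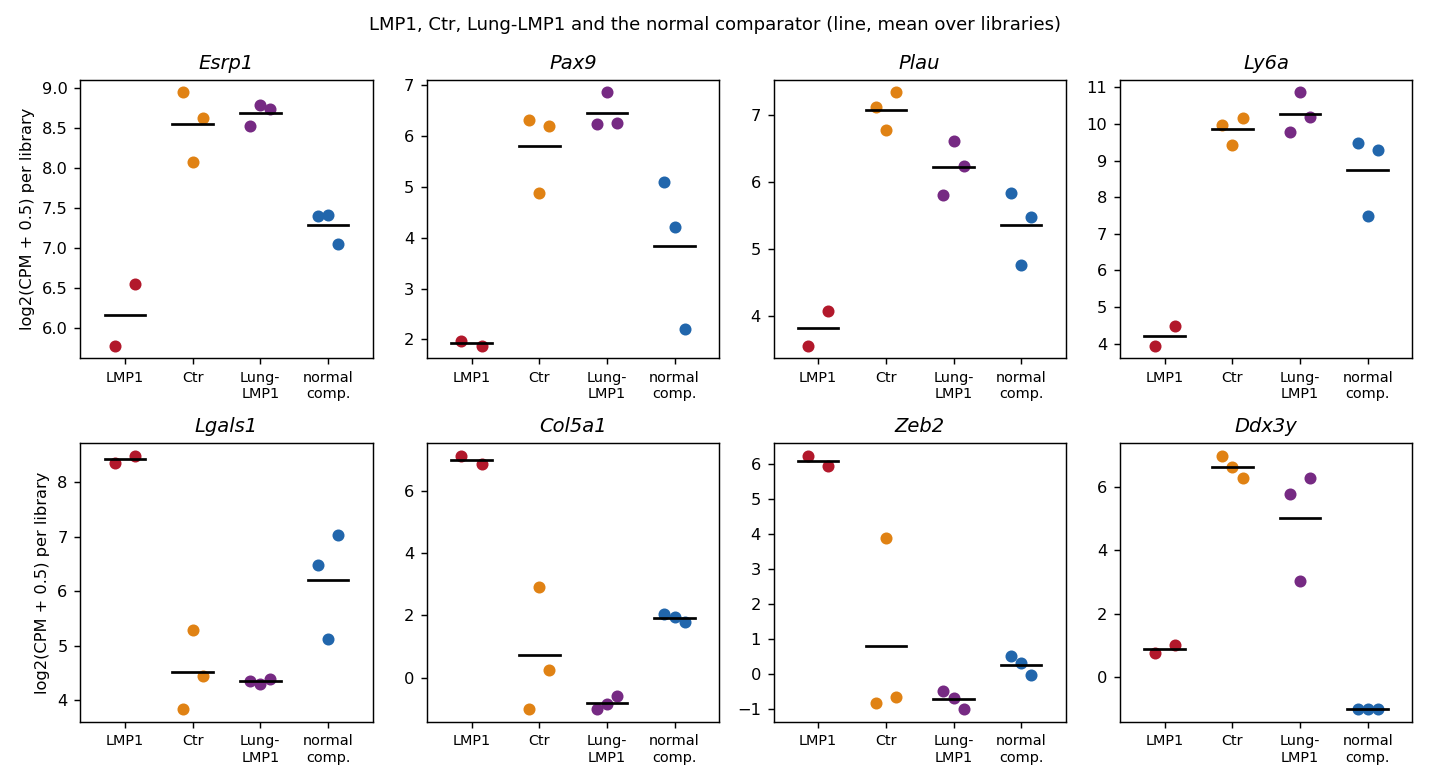
Log2(CPM + 0.5) of 8 genes in every library of LMP1, Ctr, Lung-LMP1 and the normal comparator, from the fit of 13 libraries. LMP1 lies below Ctr and Lung-LMP1 for Esrp1, Pax9, Plau, Ly6a and Ddx3y and above every Lung-LMP1 library for Lgals1, Col5a1 and Zeb2.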

How the data were processed

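RNA-seq counts per gene were deposited by the authors as raw counts, per the file headers. STAR, the mm10 build, DESeq and DESeq2 are named in the submitters' processing notes, and no other setting is given there. The 2 LMP1 libraries and the 3 comparator columns come from tables with the same list of 24421 gene symbols, after 26 of 27 symbols turned into dates were restored. Of these symbols, 22575 were shared with the table that holds the Normal_nasopha and Normal_lung libraries. A further 32 per-library columns, headed as TPM, were not used. Coordinates are GENCODE's for GRCm38 (mm10).

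Counts were tested with edgeR 4.0.16 (R 4.3.3): filterByExpr, TMM scaling, robust quasi-likelihood test, Benjamini-Hochberg adjustment at 0.05, with 3 residual degrees of freedom. A fit of 13 libraries (8 residual degrees of freedom) tested LMP1 against Ctr and Lung-LMP1. Alternatives were DESeq2 1.42.0, other scaling, no filter, leaving out each library, a replicate block, a length and GC correction (mgcv 1.9.3) and other columns for the comparator. The procedure was tested on simulated data. A fold against 0 counts is a bound with a floor of 3 counts over the group, and intervals (95%) cover counting error only. Total counts of 14779383 to 18067227 set the depth.

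Named genes are Trp53, Cdkn2a and Myc, the 10 called genes of largest change in each direction with mean log2 CPM of at least 3 and groups that do not overlap, and 3 members of smallest adjusted p of each of 38 lists. Others were chosen after their values were seen. A few genes that this rule names are not reported here. The members and lists were chosen with earlier results of these data known.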

Additional observations from a re-analysis of the deposited data

Results flagged for a closer look

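In 6 genes the sign of the log2 fold change against the comparator differed between LMP1 and another tumour group. The difference between these groups itself passed edgeR's test in the fit of 13 libraries. Against the comparator, Esrp1, Lgals1 and Pax9 did not pass for LMP1 in the fit of 5 libraries. Esrp1 was lower in LMP1 than in Ctr by a log2 difference of -2.38 and than in Lung-LMP1 by -2.48. Pax9 was lower than in Ctr by -4.18 and than in Lung-LMP1 by -4.74. Plau was lower than in Ctr by -3.29, and Ly6a was lower than in Lung-LMP1 by -6.15. Lgals1 was higher in LMP1 than in Ctr by 3.80 and than in Lung-LMP1 by 4.11, and Col5a1 was higher than in Lung-LMP1 by 10.6. Their values by library are given with the other tumours.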

How the results depend on the processing

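The count of 2288 called genes was 4416 with DESeq2, 3980 with 13 libraries together, 3287 with the Normal_nasopha columns of another table, and 77 to 4325 when each library in turn was left out. The share of calls that were higher was 35.2%, and it was 48.7% after length and GC correction, 48.6% with 13 libraries, 43.9% with the Normal_nasopha columns and 49.4% without comparator replicate 1. The correction moved the median of all genes to 0.101, from -0.118 in the fit as reported. Correlations of deviations between same-numbered libraries were -0.145 and -0.0233. With 2 LMP1 libraries the deviations of 1 mirror those of the other, so these values cannot decide whether replicate numbers pair the samples. The fit with the replicate block called 1258. Against Ctr the 1406 calls were 2705 with DESeq2, 522 with the replicate block and 48 to 1188 with each library left out. Against Lung-LMP1 the 1081 calls were 2058 with DESeq2, 524 with the replicate block and 69 to 670 with each library left out. Trp53, not called, lay between -0.396 and 0.307 with each library left out, changing sign without comparator replicate 1, and at 0.132 after length and GC correction. Ppl, not called, lay between -0.545 and 0.129 with each library left out, changing sign without comparator replicate 1. The cause was not tested. All 167 called genes named in the text kept their direction under every alternative run, and 30 of them were called whichever library was left out. Their folds moved by over 1.5 times in 22 genes without LMP1 replicate 1, 27 without LMP1 replicate 2 and 20, 6 and 14 without comparator replicates 1, 2 and 3. With 2 LMP1 libraries, calls without 1 of them rest on a single library.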
